A study of Mus with 8 samples.

Results

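Lin-Kit+ blood progenitors (LK cells) of Ifnar-/- mice were compared between 14 days of age (P14) and birth (P0). The fraction lacks the surface markers of mature blood lineages and carries the stem cell factor receptor Kit. A barcode counted as a cell when it held at least 7500 gene UMI (unique RNA molecules) and at most 10% mitochondrial UMI. This gave 3885 cells at P14 and 5767 at P0, together 9652 of the 35549 cells in all 8 libraries of the series. The series crosses both ages with LK and Lin-Sca1+Kit+ (LSK) cells and with the genotypes Ifnar-/- and Ifnar+/-, with 1 library for each combination. RNA and 10 antibody tags were counted in the same cells by CITE-seq, and no agent or treatment is named. The labels name neither the organ nor the number of mice, so age and organ cannot be told apart, and pooling of mice within a library is not stated.

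Ifnar1 and Ifnar2 encode the chains of the type I interferon receptor, through which interferon alpha and beta switch on antiviral genes. Around birth, mouse blood formation moves from the liver to the bone marrow, and progenitors leave a fetal programme marked by LIN28B and IGF2BP proteins. LK cells include the early progenitors of red cells, megakaryocytes, granulocytes and monocytes, with some lymphoid-primed cells.

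The summed cells held 238229661 gene UMI at P0 and 150009925 at P14, with medians of 37733 and 34339 UMI per cell. Cells held 93.6% of all gene UMI of the P0 library and 82.8% at P14, and any pair of the 8 libraries shared 1 to 10 cell barcodes. Transcripts of both sexes were present in each library, and cells with Y-linked but no Xist transcripts made up 23.6% of the sexed cells at P0 and 32.7% at P14. With 1 library on each side there is no replicate error and no test between the ages. All intervals are 95% intervals of counting error only. Levels are given as CPM, UMI of a gene scaled to the gene UMI of its library. A gene was called when its CPM differed at least 2-fold and 1 of the libraries held at least 50 of its UMI.

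The targeted gene was read first. Ifnar1 had 14.7 CPM at P0 and 20.1 at P14 in Ifnar-/- LK cells, beside 15.8 and 23.5 in Ifnar+/- LK cells. Ifnar2 had 69.0 and 65.0 CPM in Ifnar-/- cells. The labels do not give the deleted part, and 3' tags outside it do not check the genotype. Kit, the receptor used in the sort, had 131 CPM at P0 and 170 at P14. Of the lineage genes, Cd3e was at 0 in both libraries, and Ly6a, which encodes Sca1, had 1.54 and 4.45 CPM.

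Of 13695 genes counted, 833 were at least 2-fold higher at P14 (6.08%) and 453 were at least 2-fold lower (3.31%). The median log2 ratio of P14 over P0 was 0.14, and 77.7% of genes lay within 1.5-fold. At 4-fold, 108 genes were higher and 164 lower, so the larger differences lay more often on the newborn side. TMM scaling moved every log2 ratio by -0.15 and median-of-ratios scaling by -0.17. The split of higher and lower genes was then 598 and 579 under TMM and 579 and 593 under median of ratios, so the excess of higher genes at 2-fold rests on the scaling.

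**Figure D1:**
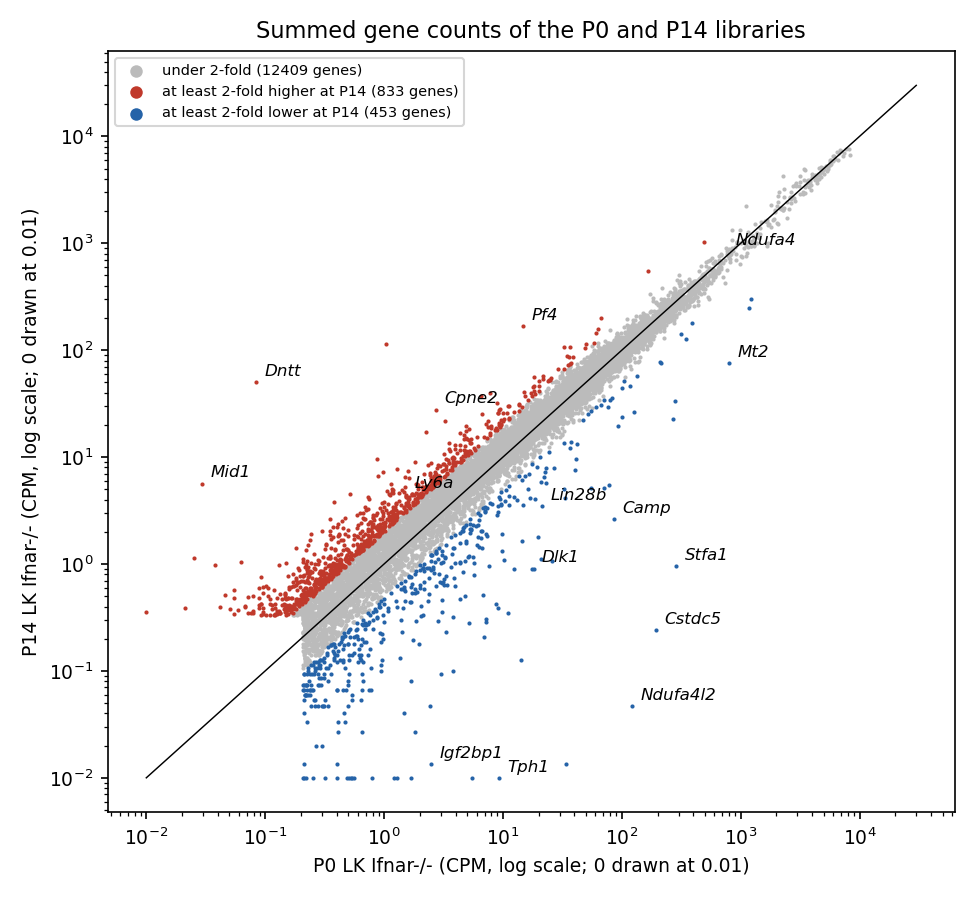
Each point is 1 of 13695 genes, with its level in the P0 library on the x axis and in the P14 library on the y axis, both in CPM on log scales. The 453 blue genes reach far below the diagonal (Ndufa4l2, Tph1, Cstdc5), while Dntt and Mid1 stand apart among the 833 red genes.

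The lymphoid gene Dntt, which encodes the polymerase that adds untemplated bases at antigen receptor joints, had the highest ratio of all named genes. It had 20 UMI at P0 and 7548 at P14, or 0.0840 and 50.3 CPM, a log2 ratio of 9.19 (8.60 to 9.94). In RefSeq (GRCm38.p6) the gene lies on chromosome 19 from 41029275 to 41059525. Dntt UMI were found in 547 P14 cells and in 10 P0 cells. After thinning of each cell to 7500 UMI, 9.63% of P14 cells and 0.0694% of P0 cells kept a Dntt UMI. Among P14 cells led by erythroid markers 2.08% carried a Dntt UMI before thinning, at a median of 58814 UMI. Of all P14 cells 14.1% did, at a median of 34339. Dntt is itself a marker of the lymphoid-primed range described further on, so its UMI draw cells away from the erythroid range. The low share there is thus partly built in by the assignment, and nothing is read from it on stray Dntt RNA. Free RNA, read from barcodes with 100 UMI or fewer, held 45.8 CPM of Dntt at P14 and 0 at P0.

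Of 18 lymphoid genes, 4 were at least 2-fold higher and 3 lower, with a median log2 ratio of 0.45, where 6.08% of all genes were higher and 3.31% lower. Beside Dntt these were the recombinase genes Rag1 (0.487 to 1.21 CPM, log2 ratio 1.31) and Rag2 (0.844 to 1.86 CPM, 1.14) and Ly6d (0.239 to 1.69 CPM, 2.81). Ly6d UMI lay in 16 P0 and 29 P14 cells, and the 10 richest held 89.5% and 79.1% of them. The 3 lower genes were the surrogate light chain genes Igll1 (1.96 to 0.180 CPM, log2 ratio -3.42) and Vpreb1 (3.83 to 1.40 CPM, -1.45) and the transcription factor gene Lef1 (0.541 to 0.0600 CPM, -3.10). So the early gene Dntt and genes of the pre-B receptor lay on opposite sides. Among members that are not markers of the ranges described further on, 4 of 10 were lower and 0 higher in the lymphoid-primed range (median -0.63), where 1.41% of the genes counted were lower and 2.99% higher. In the monocyte and dendritic range 4 of 6 were lower and 0 higher (median -2.26), where 3.16% were lower and 0.804% higher. Dntt, Rag1 and Ly6d, 3 of the 4 genes higher over the library, are such markers and were left out. Nothing is therefore read from the counts of 0 higher. With markers included, the list summed to 1055 CPM at P0 and 1537 at P14 in the lymphoid-primed range. In the monocyte and dendritic range it summed to 422 and 398 CPM. Flt3, a cytokine receptor of early lymphoid progenitors, had 23.9 CPM at P0 and 44.7 at P14, under 2-fold.

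Megakaryocyte genes were higher at P14 in 4 of 8 cases and lower in none, where 6.08% of all genes were higher, with a median log2 ratio of 1.23. Pf4, a platelet chemokine, had 14.8 CPM at P0 and 168 at P14, a log2 ratio of 3.51 (3.46 to 3.56). The 10 richest cells held 39.8% of Pf4 UMI at P0 and 23.5% at P14. With equal weight for each of the 7 cell ranges described further on, the list median was 0.56 and the log2 ratio of Pf4 2.47. All 8 genes are markers of the megakaryocyte range, so the smaller equal-weight ratios are partly built in by the assignment. Nothing is read from them. The equal-weight setting also leaves out cells that belong to no range. Gp1bb and Gp5, which encode parts of the platelet receptor for von Willebrand factor, went from 1.51 to 5.26 CPM and from 5.20 to 18.2 CPM. Vwf itself went from 2.44 to 6.83 CPM. Itga2b, whose product is CD41, was under 2-fold at 16.7 and 21.7 CPM.

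Of 17 stem cell transcription factors, 4 were at least 2-fold higher at P14, against 6.08% of all genes, and none lower, with a median log2 ratio of 0.77. Mecom went from 6.93 to 15.3 CPM, Meis1 from 35.6 to 72.1, Hoxa10 from 2.65 to 5.87 and Gata2 from 39.1 to 86.7. Hlf and Hoxa9 were just under 2-fold, at log2 ratios of 0.99 and 0.89. With equal weight for each range the list median was 0.28, with Mecom at 0.48 and Meis1 at 0.46. Mecom, Meis1, Hlf and Hoxa9 are markers of the stem and multipotent range, so their equal-weight ratios are partly built in by the assignment. Inside that range, with these markers left out, 0 of 13 counted members were at 2-fold, with a median of -0.06. Only 2.0% of all genes counted in that range were higher and 1.1% lower, so nothing is read from the count of 0. Runx1, required for the first blood stem cells, had 119 CPM at P0 and 102 at P14. Growth factor receptors (18 genes), homing and adhesion genes (14) and polycomb genes (13) had no member at 2-fold in either direction. Of all genes 6.08% were higher and 3.31% lower, so little is read from these counts of 0.

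Genes of the fetal programme were lower at P14 in 4 of 8 cases, against 3.31% of all genes, and higher in none, with a median log2 ratio of -1.01. Lin28b, which blocks maturation of let-7 microRNAs, had 5087 UMI at P0 and 525 at P14, or 21.4 and 3.50 CPM, a log2 ratio of -2.61 (-2.74 to -2.48). Igf2bp1, an RNA-binding protein gene and let-7 target, had 593 UMI at P0 and 2 at P14, a log2 ratio of -7.22 with a counting interval of -10.59 to -5.69. Its relatives differed less, Igf2bp2 at -1.25 (14.5 to 6.12 CPM) and Igf2bp3 at -0.57 (66.7 to 44.8 CPM). The chromatin genes Hmga1 and Hmga2 also parted, with 100 and 44.4 CPM for Hmga1 but a log2 ratio of -0.11 for Hmga2. The list was therefore not uniform, and Hmga2 had nearly the same summed level at both ages.

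Imprinted growth genes were at least 2-fold lower in 7 of 11 cases, against 3.31% of all genes, with none higher and a median log2 ratio of -1.95. Dlk1, a Notch-like surface protein of fetal tissues, had 4323 UMI at P0 and 136 at P14, a log2 ratio of -4.32 (-4.58 to -4.08). Its imprinted neighbour Meg3, a non-coding RNA, went from 5.68 to 0.787 CPM (-2.85). H19 went from 3.04 to 0.460 CPM (-2.72) and Igf2 from 0.243 to 0.0467 CPM (-2.30). Peg3, Zdbf2 and the cell cycle inhibitor Cdkn1c were the other members at 2-fold, and Ndn had 4.57 and 4.22 CPM.

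The metallothioneins Mt1 and Mt2, small zinc-binding proteins that lie side by side on chromosome 8, went from 1218 to 302 CPM and from 794 to 75.1 CPM. The log2 ratio was -2.01 for Mt1 and -3.40 for Mt2, while the zinc exporter Slc30a1 had 3.55 and 3.71 CPM. Ndufa4l2, a hypoxia-induced relative of a cytochrome oxidase subunit, had 29033 UMI at P0 and 7 at P14, or 122 and 0.0467 CPM, a log2 ratio of -11.25 (-12.67 to -10.31). Its partner gene Ndufa4 had 768 CPM at P0 and 848 at P14. Ndufa4l2 RNA was thus nearly missing at P14, with Ndufa4 at similar levels. Free RNA held 123 CPM of Ndufa4l2 at P0 and 0 at P14. Among P0 cells led by erythroid markers 79.2% carried a Ndufa4l2 UMI, at a median of 56949 UMI, against 6.49% of P0 cells led by stem cell markers, at a median of 19494.

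Of 17 hypoxia targets, 6 were at least 2-fold lower, against 3.31% of all genes, and none higher, with a median log2 ratio of -0.68. Egln3, an oxygen-sensing hydroxylase gene, went from 41.1 to 9.61 CPM, P4ha2 from 2.82 to 0.293 CPM and Ddit4 from 16.4 to 6.96 CPM. Vegfa, Car9 and Kdm3a, also textbook hypoxia targets, had log2 ratios of -0.01, 0.06 and 0.13. Of 16 glycolysis genes, 3 were lower beside the same 3.31%, and none higher, with a median of -0.57. The lactate exporter Slc16a3 had 55.1 CPM at P0 and 5.15 at P14 (-3.42), the glucose transporter Slc2a1 15.5 and 6.67 (-1.21) and the enolase gene Eno1 315 and 142 (-1.15). Gapdh and Ldha were lower by less than 2-fold, at -0.39 and -0.63.

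Red cell genes did not move as 1 block. Car1, carbonic anhydrase 1, had 167 CPM at P0 and 556 at P14, a log2 ratio of 1.74, and Tfrc, the transferrin receptor, had 63.7 and 157 CPM, a log2 ratio of 1.30. Heme synthesis genes were lower in 2 of 13 cases, against 3.31% of all genes, with a median of -0.62, and little is read from 2 members. These were Cpox (348 to 128 CPM, -1.45) and Alas2 (0.495 to 0.0733 CPM, -2.70). Adult globins were lower in 2 of 4 cases, against 3.31% of all genes, Hba-a1 (40.3 to 7.52 CPM) and Hba-a2 (14.8 to 3.56 CPM), while Hbb-bt had 126 and 84.7 CPM. In the erythroid range 4 of 4 were lower, with a median of -2.03, where 3.41% of the genes counted were lower. All ranges but the megakaryocyte range had globin medians below 0, on 1 to 4 counted genes. They ran from -4.98 (lymphoid-primed, 4 genes) to -1.25 (stem and multipotent), the latter being the value of 1 gene. In the megakaryocyte range 3 of the 4 were higher, with a median of 1.31, and 0 lower, where 2.29% of the genes counted were higher and 1.39% lower. The summed globin level there went from 125.5 to 95.9 CPM. Klf1, the erythroid transcription factor, had 107 and 79.8 CPM. Tph1, an enzyme of serotonin synthesis, had 2190 UMI at P0 and 0 at P14, at least 460-fold lower when 0 is raised to a floor of 3 counts.

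Neutrophil granule genes were lower in 9 of 16 cases, against 3.31% of all genes, and higher in none, with a median log2 ratio of -1.59. Camp, an antimicrobial peptide of late granules, had 85.8 CPM at P0 and 2.61 at P14 (-5.04), and Ngp had 1647 and 31 UMI (-5.04). S100a8 went from 283 to 33.2 CPM and S100a9 from 270 to 22.5 CPM. The early granule enzymes differed less, with Mpo at 1232 and 944 CPM, Ctsg at 612 and 649 and Elane at 731 and 428. Genes of the cysteine protease inhibitor cluster on chromosome 16 had larger ratios. Stfa1 had 68492 UMI at P0 and 143 at P14 (-8.23), and Cstdc5 had 45993 and 36 (-9.63). Cstdc4 had 8104 and 2, a log2 ratio of -11.00 with a counting interval of -14.36 to -9.46. The cluster is a family of closely related copies, between which reads could be split, so the values of single members are uncertain.

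Few cells carried some of these genes. The 10 richest P0 cells held 48.4% of all Camp UMI and 76.7% of Ngp UMI, while for Stfa1 they held 16.8%. Markers of mature neutrophils were lower in 6 of 7 cases, against 3.31% of all genes, their summed level was 651 CPM at P0 and 60.5 at P14, and Retnlg was at 0 at P14. The mast cell protease genes Tpsb2 and Cma1 had 1297 and 2167 UMI at P0 and 0 and 58 at P14, at least 272-fold lower for Tpsb2 against the same floor. The 10 richest P0 cells held 92.9% of Tpsb2 and 89.0% of Cma1 UMI. Other genes of such granulocytes went both ways. Cpa3 had 31.7 and 59.0 CPM and Epx 0.718 and 1.57, while Prss34 went from 9.83 to 1.31 CPM and Hdc from 32.9 to 22.1. Of 9 eosinophil, basophil and mast cell granule genes, 1 was higher and 2 lower, against 6.08% and 3.31% of all genes. Their median log2 ratio was -0.34, with 3 members above 0 and 6 below. That list summed to 854 CPM at P0 and 827 at P14.

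Markers of other cell types were read as lists. Hepatocyte markers were lower in 5 of 8 cases, against 3.31% of all genes, with a median log2 ratio of -4.13, and summed to 34.0 CPM at P0 and 32.8 at P14, of which Trf, the transferrin gene, held 22.1 and 27.7 CPM. Alb had 309 UMI at P0 and 0 at P14, and Ttr, Serpina1a, Serpina1e and Fgb were also at 0 at P14. Macrophage markers had 1 member higher, Cd163 (15 and 156 UMI), and 1 lower, Marco, of 5 counted. Of all genes 6.08% were higher and 3.31% lower, and nothing is read from 1 member each way. None of the markers counted for T and NK cells (2 of 8), endothelium (5 of 8) and stroma (2 of 8) reached 2-fold. With so few counted, nothing is read from that either. The part of such cells in the differences above was not tested.

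Of 15 class I antigen presentation genes, 2 were higher and none lower, with a median log2 ratio of 0.54, where 6.08% of all genes were higher, and little is read from 2 members. These were H2-Q4 (1.60 to 7.47 CPM) and Nlrc5, the class I transactivator (0.0546 to 0.340 CPM). Of 7 class II genes, 3 were lower, against 3.31% of all genes: H2-Aa (9.87 to 1.91 CPM), H2-Eb1 (5.09 to 1.16 CPM) and Cd74 (17.0 to 4.11 CPM), and the 10 richest cells held 65.5% of H2-Aa UMI at P0 and 89.5% at P14. The class II list summed to 104.6 CPM at P0 and 105.3 at P14, and H2-DMa had a log2 ratio of 0.90. Inside the monocyte and dendritic range 5 of 7 members were lower, against 3.16% of the genes counted in that range, with a median of -1.89. The other 6 ranges had only 3 or 4 members counted, with medians of 0.45 to 1.16. The medians therefore do not compare the same genes between ranges.

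Of 33 interferon-stimulated genes counted, 12 were at least 2-fold higher at P14, with none lower and a median log2 ratio of 0.74, where 6.08% of all genes were higher and their median was 0.14. Irf7, a factor that amplifies interferon production, had 73 UMI at P0 and 123 at P14, or 0.306 and 0.820 CPM (log2 ratio 1.42, 0.99 to 1.86). Isg15, a ubiquitin-like modifier, had 114 and 174 UMI, or 0.479 and 1.16 CPM (1.28). Oas3, an antiviral synthetase, had 12 and 36 UMI and stayed under the 50 UMI minimum for a call. Sp100 (4.37 to 16.7 CPM) and Lgals3bp (6.63 to 25.3 CPM), each with a log2 ratio of 1.93, had the highest ratios of the 33 genes counted. Irf1, which answers interferon gamma too, went from 6.10 to 15.3 CPM (1.33), and the signalling inhibitor Socs1 from 9.64 to 3.63 CPM (-1.41). The whole list summed to 499 CPM at P0 and 713 at P14.

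In the LK Ifnar+/- libraries the same list lay on the other side, with a median log2 ratio of -0.41 and sums of 1317 CPM at P0 and 1022 at P14. Irf7 had 23.1 CPM at P0 and 4.39 at P14 there (-2.40), and Isg15 33.6 and 5.99 CPM (-2.49). Ly6a, which is also interferon-responsive, had 11.2 and 8.90 CPM in Ifnar+/- cells (-0.33), against its log2 ratio of 1.53 in Ifnar-/- cells. In LSK Ifnar-/- cells the list median was 0.31. The difference between genotypes in the age ratio was not tested, since each group has 1 library.

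**Figure D2:**
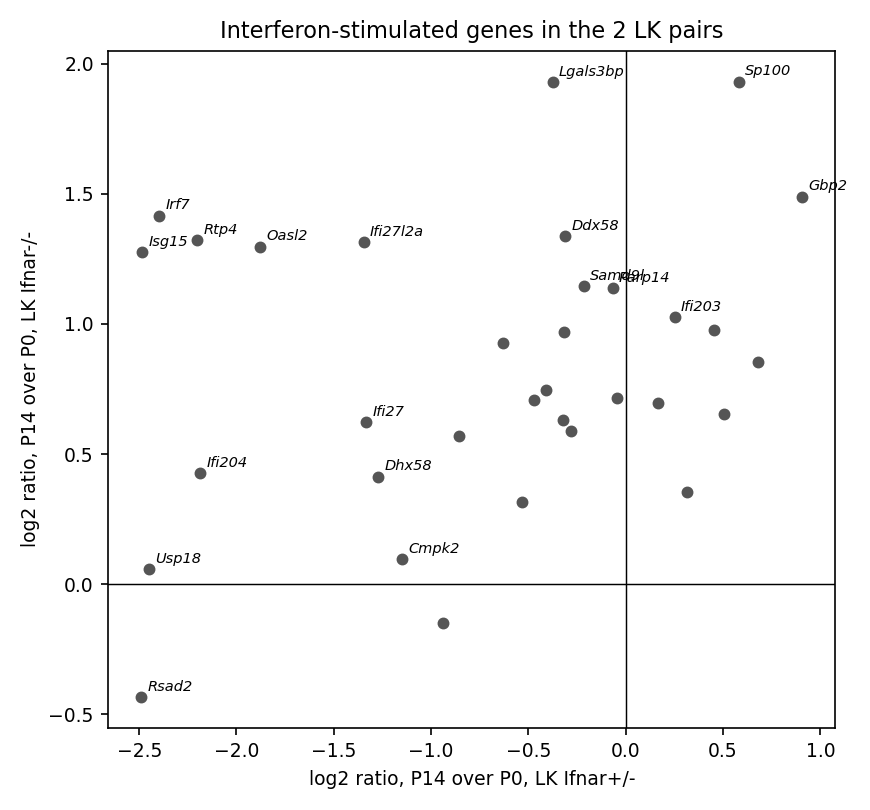
Each point is 1 of 33 interferon-stimulated genes (named where either ratio is at least 2-fold), with its log2 ratio of P14 over P0 in LK Ifnar+/- cells on the x axis and in LK Ifnar-/- cells on the y axis. Irf7, Isg15, Rtp4 and Oasl2 lie at the upper left, higher at P14 in Ifnar-/- cells and lower at P14 in Ifnar+/- cells.

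The calls were then set beside those of the other pairs. Of the 833 higher genes, 527 were also at least 2-fold higher in LK Ifnar+/- cells, 63.3% of the Ifnar-/- list and 67.2% of the 784 Ifnar+/- genes, and 5 were at least 2-fold lower there. Of all 14010 genes counted in that pair 5.6% were higher and 3.7% lower. Of the 453 lower genes, 312 were shared, 68.9% of one list and 60.2% of the 518 in the other. In LSK Ifnar-/- cells 186 of the higher and 250 of the lower genes were shared, 22.3% and 55.2% of the LK lists and 49.2% and 25.4% of the 378 higher and 986 lower LSK genes. Those are 2.69% and 7.02% of the 14044 genes counted in that pair. Dntt (8.76), Lin28b (-2.64) and Ndufa4l2 (-10.10) had like log2 ratios in LK Ifnar+/- cells. Camp and Ngp went the other way in LSK Ifnar-/- cells, at log2 ratios of 6.02 and 8.36, from 23 and 3 UMI at P0. At P14 they had 11.2 and 8.44 CPM in LSK Ifnar-/- cells but 0.336 and 0.161 in LSK Ifnar+/- cells. The high P14 LSK level was thus that of 1 library. These differences between pairs were not tested.

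Mid1, an X-linked ubiquitin ligase gene, had 7 newborn UMI and 845 P14 UMI (log2 ratio 7.48), but the Ifnar+/- LK libraries held 5.42 and 6.80 CPM. Over the 8 libraries it had 0.0294 and 0.154 CPM in the P0 Ifnar-/- libraries and at least 4.84 in each of the others. The gene model Gm47283, chosen after its values were seen, had 1.05 and 1.38 CPM in these P0 Ifnar-/- libraries and 91.8 to 128 in the other 6. Tph1 had 9.19 and 6.38 CPM there and at most 1.11 in the other 6. For these 3 genes the P0 Ifnar-/- libraries stood apart from all others, the P0 Ifnar+/- libraries included. Tph1 was also lower at P14 in LK Ifnar+/- cells (-5.48), whereas Mid1 was not (0.33). In the P14 Ifnar-/- libraries Mid1 had 5.63 and 4.84 CPM and Gm47283 115 and 125, close to the Ifnar+/- levels. The labels do not give the background strain of the mice, so age and a difference between the mice or libraries cannot be told apart in the Mid1 ratio.

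**Figure D3:**
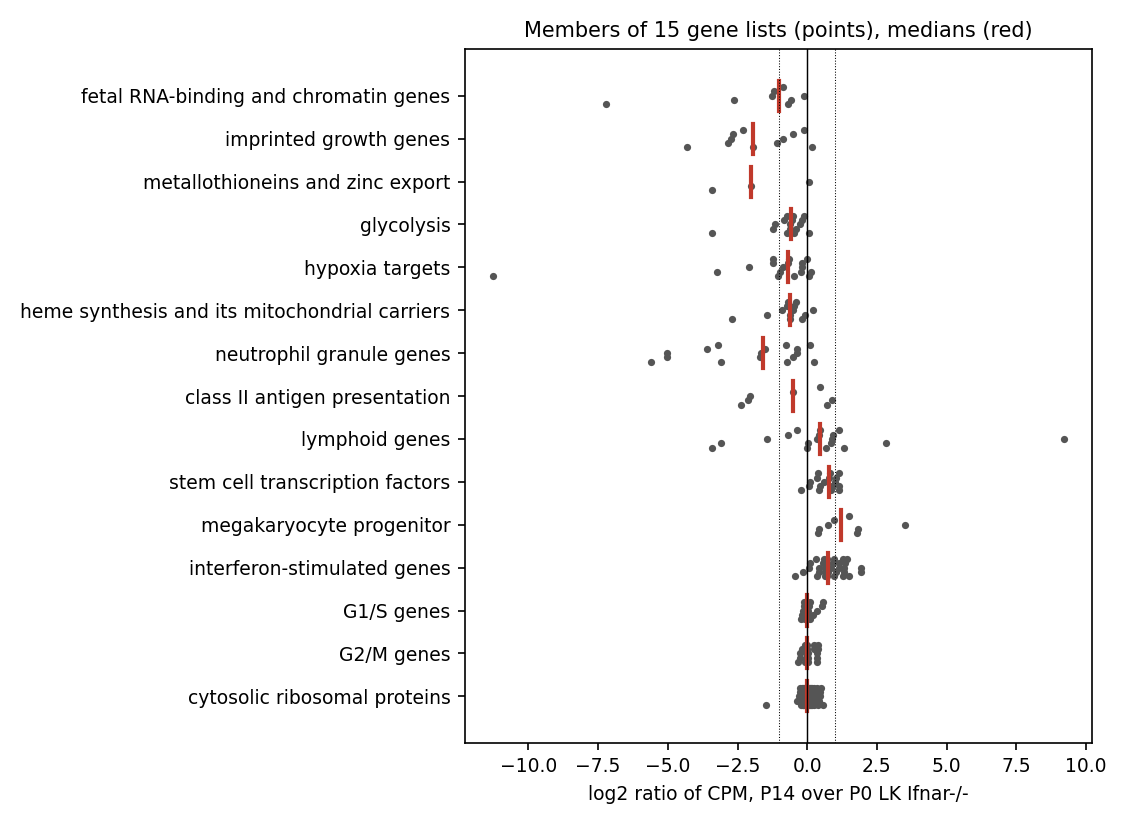
Points are the counted members of 15 gene lists and red bars their medians, on the x axis as log2 ratios of P14 over P0 in LK Ifnar-/- cells; dotted lines mark 2-fold. Fetal, imprinted, metallothionein and neutrophil granule lists lie to the left, megakaryocyte and stem cell lists to the right, and cell cycle and ribosomal genes near 0.

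Cell cycle genes hardly moved over the whole library. None of 20 G1/S and 20 G2/M genes reached 2-fold, with medians of 0.01 and 0.00. Of all genes 6.08% were higher and 3.31% lower, so little is read from counts of 0. By range the G2/M medians ran from -0.31 (stem and multipotent) to 0.11 (megakaryocyte). Mki67, a marker of cycling cells, had 316 CPM at P0 and 417 at P14, and Pcna, the replication clamp, had 268 and 262. Of 81 cytosolic ribosomal protein genes 1 was lower, where 3.31% of all genes were, and of 77 respiratory chain genes 1 was higher, where 6.08% were.

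The makeup of the fraction was read from 7 marker lists. After thinning to 7500 UMI, each cell took the list with the highest z-score if that was at least 1. These are ranges of a score and not cell types, and 18.1% of P0 and 16.1% of P14 cells lay within 0.25 of that limit. Doublets were not removed. Stem and multipotent markers led 8.01% of P0 cells (7.32 to 8.74) and 12.2% of P14 cells (11.2 to 13.3). Lymphoid-primed markers led 8.96% and 15.3%, and megakaryocyte markers 6.16% and 11.4%. Neutrophil markers led 11.3% and 6.82%, and monocyte and dendritic markers 7.66% and 4.94%. Basophil, mast and eosinophil markers led 7.89% and 8.01%. Cells of that last range carried a median of 4 neutrophil markers and 2 of their own at both ages, and those of the monocyte and dendritic range 4 and 3, so neither is called a cell type. Erythroid markers led 21.7% and 18.5%, an order that turned round at a z of at least 2, at 3000 UMI and with summed marker UMI. The lists hold genes given above with their ratios, among them Dntt, Rag1 and Ly6d for the lymphoid-primed list and Pf4, Vwf, Gp1bb and Gp5 for the megakaryocyte list. Without every marker that differed at least 2-fold, a setting chosen after seeing the data, megakaryocyte markers led 6.03% and 8.85%, lymphoid-primed 9.05% and 14.3% and stem and multipotent 8.08% and 10.9%. Cells led by no list made up 28.2% at P0 and 22.8% at P14. With each range given equal weight and these cells left out, 425 genes were at least 2-fold higher at P14 and 526 lower. The weight of the ranges and the loss of these cells cannot be told apart in this change. The monocyte and dendritic list had a median log2 ratio of -0.55 here and 0.74 in LK Ifnar+/- cells.

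**Figure D4:**
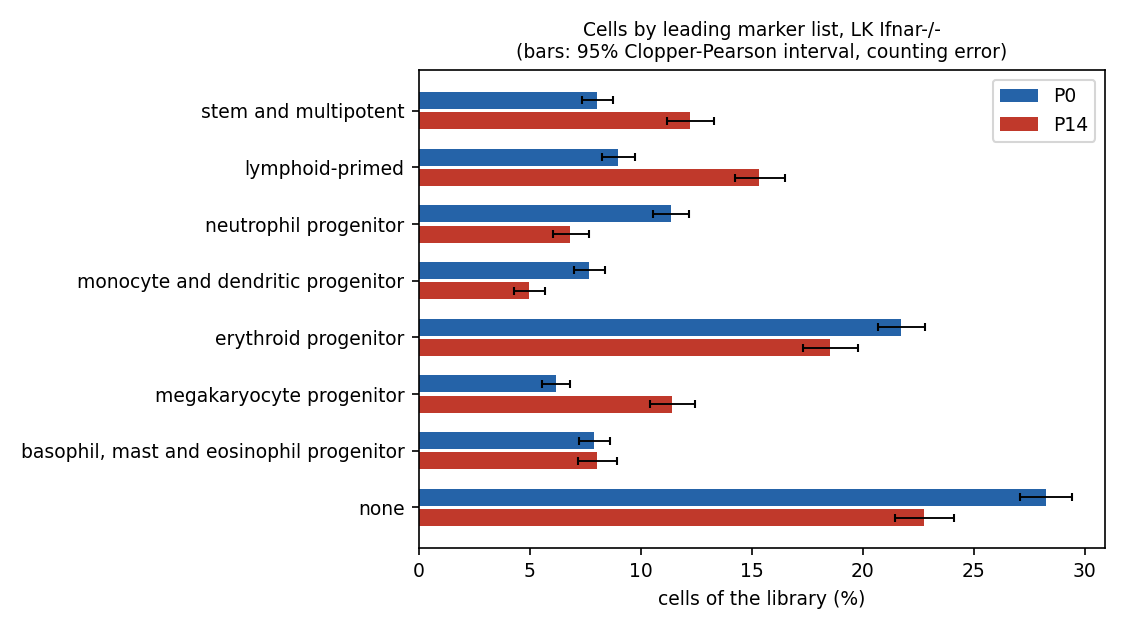
Bars give the percent of cells of the P0 (blue) and P14 (red) LK Ifnar-/- libraries led by each marker list, with 95% Clopper-Pearson intervals. Stem, lymphoid-primed and megakaryocyte ranges were larger at P14, and neutrophil and monocyte ranges were larger at P0.

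Several differences were also present inside every range. Leaving out markers, 9043 genes were counted in all 7 ranges, and of these 18 were at least 2-fold higher and 13 lower in every range. Only 108 of the 833 library-wide higher genes were among the 9043, and the 18 were all of that group. Of the 18, 7 were histone genes, whose share of the 9043 is not given. Mid1 and Gm47283, very low in both P0 Ifnar-/- libraries, were also among the 18. The others included Cpt1a, the carnitine transferase of fatty acid oxidation (log2 ratios of 1.59 to 2.85), Aff3 (1.51 to 3.50), Cpne2 (1.74 to 4.80) and AW112010 (1.97 to 3.47). Of 53 lower genes counted in all ranges, 13 were lower in each, among them Lin28b (-4.35 to -1.20), Dlk1 (212 to 714 UMI at P0 and 0 to 30 at P14), Mt2 (-5.21 to -2.93) and Slc16a3 (-4.33 to -1.03). The 13 also include Stfa1 and S100a8, of which free RNA held 286 and 313 CPM at P0 and 1.20 and 27.4 at P14, and free RNA held 877 and 70.6 CPM of Mt2. The part of free RNA in these ratios was not tested. Within ranges the fetal list had medians from -1.43 in lymphoid-primed to -0.84 in erythroid cells. Interferon-stimulated genes had medians from 0.03 in the monocyte and dendritic range to 0.92 in the erythroid range. Hmga2, close to even over the whole library, had log2 ratios below 0 in each range, from -1.01 in the monocyte and dendritic range to -0.03 in the basophil, mast and eosinophil range.

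Other genes belonged mostly to one range. Of the P0 UMI of Stfa1, 65737 lay in the neutrophil range, where its level went from 2574 to 10.9 CPM. Of the Ndufa4l2 UMI, 19232 lay in the erythroid range, which also held 1728 of the Tph1 UMI. Id3, an inhibitor of basic helix-loop-helix factors, had 1124 of its 1720 P0 UMI in the monocyte and dendritic range and 0 there at P14. Aldh1a1, a retinal dehydrogenase gene, had 775 of its 992 P14 UMI in the erythroid range.

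**Figure D5:**
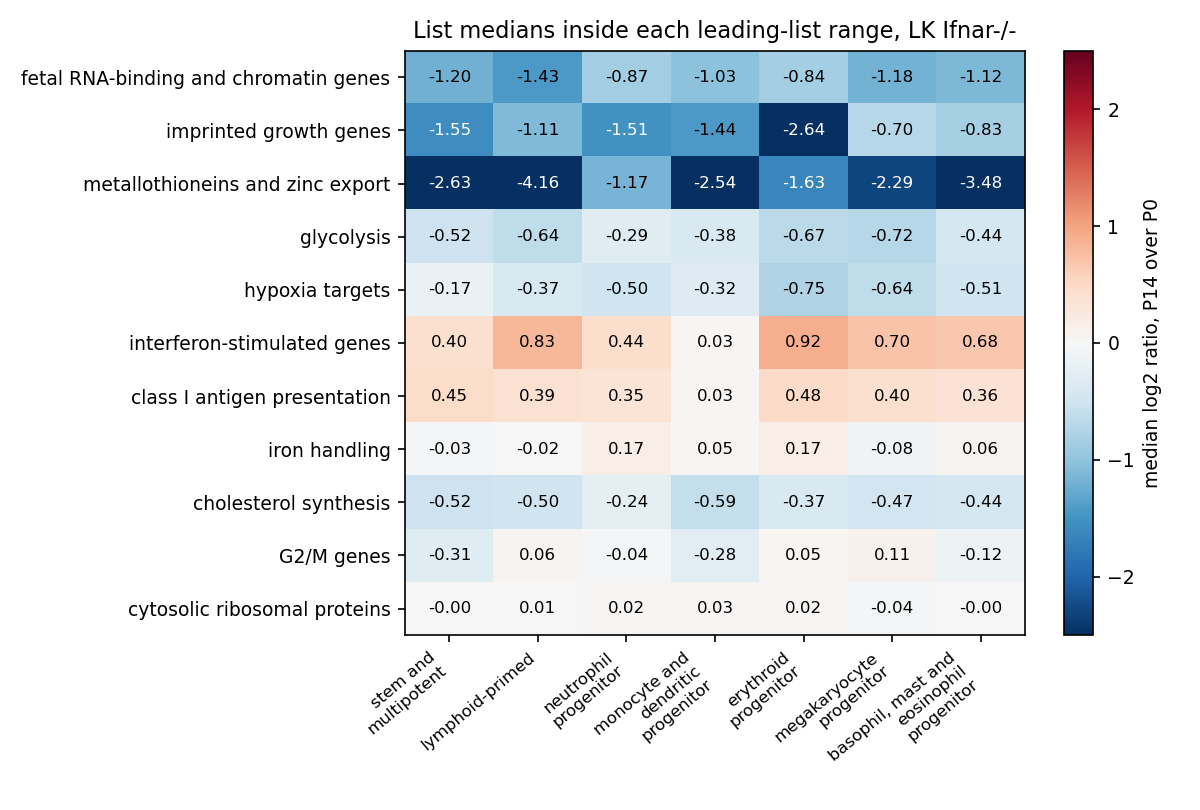
Each cell gives the median log2 ratio of P14 over P0 for 1 gene list (rows) in cells led by 1 marker list (columns), from blue (lower at P14) to red (higher). The fetal, imprinted and metallothionein rows are below 0 in all 7 columns, and the interferon-stimulated row runs from 0.03 to 0.92.

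Surface tags were read as the median per cell and as the share of all tags. CD127, the interleukin 7 receptor, had medians of 9 at P0 and 3 at P14 and a 0.396-fold share, while its RNA, Il7r, went from 3.02 to 4.77 CPM. The CD127 tag median was lower at P14 in all 7 ranges, and the highest P0 median, 14, was that of the erythroid range. Among tags of the free barcodes CD127 made up 4.38% at P0 and 0.571% at P14, against 0.309% and 0.123% in cells, and the part of free tags in the difference was not tested. CD34 had medians of 40 and 101 but a 1.29-fold share, with 14.7% and 5.79% of the tags of free barcodes, and Cd34 RNA had 111 and 173 CPM. CD150, a marker of stem cells and early red cell and megakaryocyte progenitors, had medians of 15 and 21 and a 1.76-fold share. In the erythroid range its median went from 24 to 174.5, and Slamf1 RNA, which encodes it, from 2.70 to 11.9 CPM. CD135, the FLT3 receptor, had medians of 7 and 10. CD16_32, the Fc gamma receptors of myeloid progenitors, had 43 and 29, in the same direction as Fcgr3 RNA (39.2 to 22.3 CPM). Inside the neutrophil range its median was higher at P14, 810 and 1040, and likewise in the monocyte and dendritic range, 197 and 499. CD117, CD48, CD41 and CD201 had medians of 771 and 793, 3709 and 4419, 19 and 19, and 5 and 4. By range the CD41 median moved both ways, from 135 to 69 in the megakaryocyte range and from 37 to 58 in the neutrophil range. The SA_PE tag, whose target the files do not name, had medians of 20 and 28 and a 4.66-fold share, and in the stem and multipotent range its median went from 123.5 to 826.5.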

How the data were processed

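The data were 10x Genomics Chromium 3' version 3.1 CITE-seq libraries, per the labels' protocols. The authors deposited raw counts, whole-number UMI per feature and barcode with no cell filter, over 32285 genes and 10 tags. The files were made with Cell Ranger 4 per the file headers and Cell Ranger 6.0.1 on mm10 per the submitters' processing notes; the annotation release is not given in the sources used here.

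UMI were summed over cells and scaled to CPM of all gene UMI. Log2 ratios were taken after adding 0.5 counts, with conditional exact 95% intervals and exact Poisson intervals for CPM; shares have Clopper-Pearson intervals. Floors are 3 counts per library. These cover counting error only. The ratio step was tested on simulated data. Symbols and positions came from RefSeq GRCm38.p6. Members, gene lists and the rule for named genes were chosen with earlier results of these data known. That rule took the 15 highest and 15 lowest ratios at 5 CPM or more, without Xist, Tsix, Y-linked, mt-, Gm and Rik genes, 2 abundant and 2 most changed members per list, 5 genes in each direction against LK Ifnar+/-, and a fixed set. Gene counts and list medians inside ranges were read only for genes that are not markers of them. Equal-weight values, summed list levels and the shares of cells with Dntt include markers. Alternatives covered cell limits, doublets (Scrublet in scanpy 1.11.5), scaling (edgeR 4.0.16), prior, free RNA, gene filters and class weights. Python 3.11.15 and R 4.3.3 were used. All 8 libraries were mapped from their labels, and no sample was left out. Some genes of the lists are not reported here.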

Additional observations from a re-analysis of the deposited data

Results flagged for a closer look

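In each case below the age ratio of LK Ifnar-/- cells lay on the other side of 0 from that of another pair. The difference was not tested, since each group has 1 library. Ratios of single genes are given with counts under 3 raised to 3. Interferon-stimulated genes had a median log2 ratio of 0.74 in LK Ifnar-/- and -0.41 in LK Ifnar+/- cells. The genes Oas3 (2.25 against -1.70), Irf7 (1.42 against -2.40) and Isg15 (1.28 against -2.49) had the same opposition. The monocyte and dendritic progenitor markers had a median of -0.55 in LK Ifnar-/- and 0.74 in LK Ifnar+/- cells. Camp (-5.04 against 6.05) and Ngp (-5.06 against 8.58) were opposite between LK and LSK Ifnar-/- cells. The P0 LSK Ifnar-/- library held only 23 Camp and 3 Ngp UMI. At P14 LSK Ifnar-/- cells had 11.2 and 8.44 CPM, and LSK Ifnar+/- cells 0.336 and 0.161. The 10 richest P0 LK cells held 76.7% of Ngp UMI.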

How the results depend on the processing

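The 833 higher and 453 lower genes moved by over 1.5 times under 5 alternatives: 57 and 69 with 5 CPM added, 3228 and 1511 with genes of at least 1 UMI, 280 and 207 with genes of at least 500 UMI, 108 and 164 at 4-fold, and 425 higher (lower 526) with equal weight for each range. Removing cells over 3 times the median UMI gave 866 and 457, and using only cells with Xist and no Y-linked transcripts gave 764 and 431; both were chosen after seeing the data. Equal weight also leaves out the cells of no range. Of 644 list medians under alternatives, 575 moved by under 0.25. Among the 20 lists with a median of at least 0.5 in size, 3 values turned sign, all of the macrophage list (-0.55): 1.07 at 1 UMI, 0.73 at 500 UMI and 0.11 in cells with Xist only. Of the 26 lists with smaller medians 15 lay on both sides of 0, such as mature B cell markers (-0.36, 0.25 without doublets), NF-kB and chemokine genes (0.37, -0.33 at 500 UMI) and lymphoid genes (0.45, -0.05 with equal weight). The interferon-stimulated median ranged from 0.36 to 0.79 and the fetal median from -1.18 to -0.67. No named gene that was called changed sign. The erythroid share difference (-3.19 points) was 0.53 at a z of at least 2, 2.67 at 3000 UMI and 5.73 with summed marker UMI. Scrublet's own threshold marked 157 of 5767 P0 and 7 of 3885 P14 cells, so the highest scores were removed at 0.8% per 1000 cells. The cause of these shifts was not tested. No paired analysis was possible because each group has 1 library and the labels give no replicate numbers.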

Other observations

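Replication-dependent histone genes, a group chosen after their values were seen, were higher at P14 in 31 of 62 counted members, against 6.08% of all genes, with none lower and a median log2 ratio of 0.99. Their summed level was 3360 CPM at P0 and 4542 at P14. The medians were 1.02 in LK Ifnar+/- and 0.69 in LSK Ifnar-/- cells, and G1/S genes had a median of 0.01 in LK Ifnar-/- cells. Hist1h2bg went from 4.85 to 19.6 CPM and Hist1h4d from 66.4 to 199 CPM.

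Immediate early genes were higher at P14 in 3 of 14 cases, against 6.08% of all genes: Fosb (3.25 to 21.9 CPM), Jun (48.8 to 105) and Zfp36 (7.30 to 15.2). Their median of 0.24 became -0.12 with equal weight for each range. In the stem and multipotent range 1 of 14 was higher and 4 lower, where 2.0% of the genes counted were higher and 1.1% lower. In the monocyte and dendritic range 0 of 14 were higher and 4 lower, where 0.804% were higher and 3.16% lower. The erythroid range had 3 of 12 higher and 1 lower, against 4.72% and 3.41%. The megakaryocyte range had 3 of 13 higher and 1 lower, against 2.29% and 1.39%. The basophil, mast and eosinophil range had the same counts, against 1.54% and 1.85%. In the lymphoid-primed range 1 of 14 was higher and 1 lower (2.99% and 1.41%), and in the neutrophil range 1 of 13 and 2 (1.37% and 2.01%). The chemokine gene Cxcl2 had 6 UMI at P0 and 171 at P14, and Ccl3 and Ccl4 were lower (3.24 to 1.16 and 18.4 to 4.04 CPM). Of 20 cholesterol synthesis genes 3 were lower, against 3.31% of all genes, and 0 higher, with a median of -0.35. Idi1 and Fdps had log2 ratios of -1.14 and -1.24.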
